A study of Mus musculus with 26 samples.

Results

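The ADAMTS proteases described here are 10 secreted metalloproteases of the arterial wall, Adamts1, Adamts2, Adamts4, Adamts5, Adamts8, Adamts9, Adamts10, Adamts12, Adamts15 and Adamts16. They were taken as a named list, by Ensembl identifier and mouse symbol, from 55414 gene identifiers that the count tables of both tissues share. All 10 were found, and all 10 passed the filter on low counts in each comparison. Poly(A) RNA was sequenced from 26 libraries, 13 of mesenteric arteries and 13 of aorta, from male C57BL6J mice that carried loxP-flanked Sphk1 alleles in every group. The first group, called KO AngII here (5 libraries per tissue), carried Cre recombinase under the smooth muscle promoter of Tagln (SM22α) and received angiotensin II, a vasoconstrictor peptide. The second, called WT AngII (4 per tissue), was Sphk1 flox/flox without Cre and received the same peptide. The third, called WT sham (4 per tissue), was Sphk1 flox/flox without Cre and was not made hypertensive. Angiotensin II was given at 490 ng/kg/min for 14 days from a subcutaneous minipump, starting at 12 to 14 weeks of age. Deletion was therefore measured under infusion only, in whole vessels, where Sphk1 was not measured by cell type.

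ADAMTS enzymes carry a metalloprotease domain followed by thrombospondin repeats, which hold them in the matrix close to their substrates. One branch (Adamts1, Adamts4, Adamts5, Adamts8, Adamts9 and Adamts15) is known for cutting versican and aggrecan, the large hyaluronan-binding proteoglycans. Adamts2 removes the amino-terminal propeptide of fibrillar procollagens, Adamts10 binds fibrillin microfibrils, Adamts12 is a relative of Adamts7 that acts on cartilage oligomeric matrix protein, and Adamts16 was linked to blood pressure in rats.

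What these proteins share at the RNA level is the stretch that encodes the zinc-binding site, shown here because it is the catalytic signature of the family. The stretches were read from the longest coding transcript of each gene in GENCODE M21 (GRCm38), 36 bases in the coding sense. Capitals mark the codons of the 3 zinc-binding histidines and of the catalytic glutamate beside the first of them.
Adamts1: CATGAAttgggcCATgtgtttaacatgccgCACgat
Adamts4: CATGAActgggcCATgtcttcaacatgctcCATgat
Adamts5: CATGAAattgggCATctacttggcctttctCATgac
Adamts8: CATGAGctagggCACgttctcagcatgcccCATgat
Adamts9: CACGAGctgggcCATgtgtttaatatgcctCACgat
Adamts15: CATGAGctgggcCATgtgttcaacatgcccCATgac
Adamts2: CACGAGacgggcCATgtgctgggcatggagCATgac
Adamts10: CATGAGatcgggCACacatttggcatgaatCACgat
Adamts12: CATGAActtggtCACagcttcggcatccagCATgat
Adamts16: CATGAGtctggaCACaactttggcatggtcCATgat
The closest pair was Adamts4 and Adamts15, with 32 of 36 bases equal, followed by Adamts1 and Adamts9 with 31. Adamts5 differed most from its own branch, with 20 to 23 bases equal to the other members of it. Adamts1 and Adamts5 are neighbouring coding genes on chromosome 16, and Adamts15 and Adamts8 are neighbours on chromosome 9.

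The mesenteric libraries held 17.54 to 30.05 M counted reads each and the aortic libraries 23.49 to 32.25 M. Sphk1, the deleted gene, averaged 2.61 CPM (reads scaled to a common library size, here with TMM factors) in KO AngII aortas, 19.4 CPM in WT AngII aortas and 4.75 CPM in WT sham aortas. In mesenteric arteries it averaged 3.76 CPM in KO AngII, 13.4 CPM in WT AngII and 8.27 CPM in WT sham. Its log2 fold change, KO AngII against WT AngII, was -2.90 ± 0.26 (SE) in the aorta and -1.83 ± 0.20 in mesenteric arteries (edgeR adjusted p = 0.00046 and 0.0101). Smooth muscle markers were abundant in every library, with a sum over 10 genes of 23348 to 50466 CPM in mesenteric arteries and 19723 to 41388 CPM in aortas. Mesenteric libraries differed in markers of neighbouring tissue: a list of 10 gut and pancreas genes summed to 13.1 to 63562 CPM, and 4 mesenteric libraries had over 10% of their records not aligned.

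**Figure D1:**
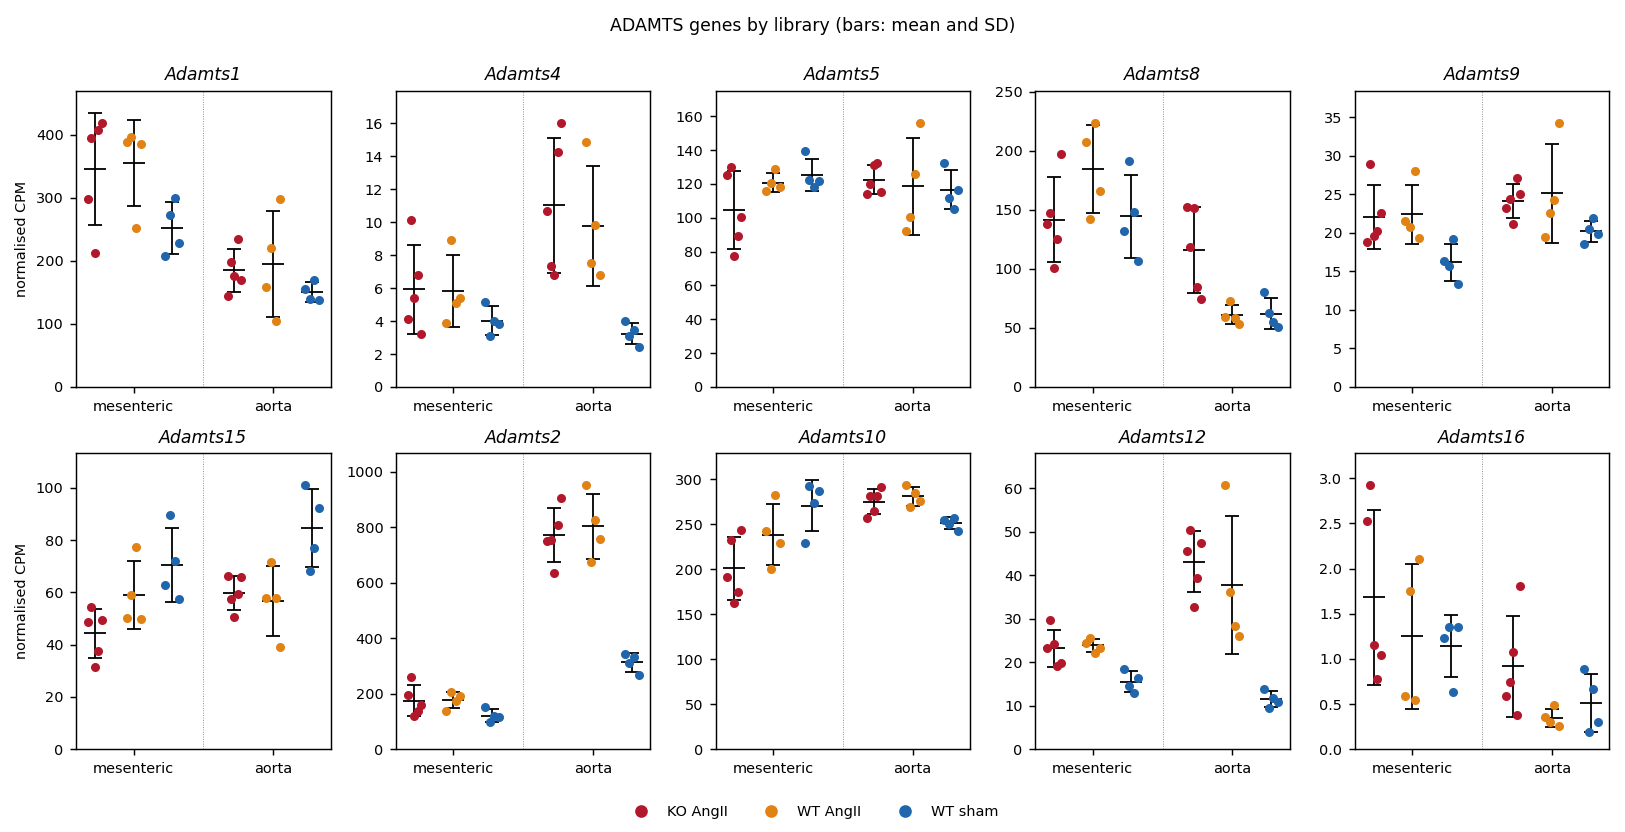
Normalised CPM of the 10 ADAMTS genes in each of the 26 libraries (points), with the mean and SD of each group (bars), for mesenteric arteries (left of each panel) and aorta (right). KO AngII and WT AngII aortas lie above WT sham aortas for Adamts4, Adamts2 and Adamts12, and KO AngII aortas lie above WT AngII aortas for Adamts8.

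In WT sham vessels the family spanned a wide range of levels. On a per-length scale (CPM per kb of the longest coding transcript), Adamts10 was first in both tissues, at 67.0 CPM per kb in mesenteric arteries and 62.1 CPM per kb in aortas. Behind it in WT sham aortas came Adamts2 at 43.1, Adamts1 at 30.8, Adamts8 at 17.1, Adamts15 at 14.3 and Adamts5 at 10.8 CPM per kb. Adamts9 (2.52 CPM per kb), Adamts12 (1.33), Adamts4 (0.738) and Adamts16 (0.103) were the low members there. The levels of Adamts8 and Adamts15 overlapped between libraries, as did those of Adamts15 and Adamts5, while the other neighbours in this order did not overlap. In WT sham mesenteric arteries the order after Adamts10 was Adamts1 (51.6 CPM per kb), Adamts8 (39.8), Adamts2 (16.6), Adamts15 (11.9) and Adamts5 (11.6). Adamts9 (2.02 CPM per kb), Adamts12 (1.81), Adamts4 (0.918) and Adamts16 (0.230) closed it. There the level of Adamts10 overlapped with that of Adamts1, Adamts1 with Adamts8, Adamts2 with Adamts15, Adamts15 with Adamts5 and Adamts9 with Adamts12. On this scale the first place changed after infusion. Adamts2 led in KO AngII aortas (106 CPM per kb) and WT AngII aortas (111 CPM per kb), above Adamts10 in all their libraries. By CPM without length, Adamts2 was already above Adamts10 in WT sham aortas, at 266.9 to 342.1 against 242.5 to 257.2 CPM. The order of these genes there thus depended on dividing by transcript length. Adamts1 led in KO AngII mesenteric arteries (70.9 CPM per kb) and in WT AngII mesenteric arteries (72.8 CPM per kb). Its libraries overlapped with the range of Adamts10 in both groups: in KO AngII Adamts1 spanned 43.7 to 85.8 and Adamts10 40.3 to 60.2 CPM per kb, and in WT AngII Adamts1 spanned 51.8 to 81.2 and Adamts10 49.5 to 69.8 CPM per kb.

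**Figure D2:**
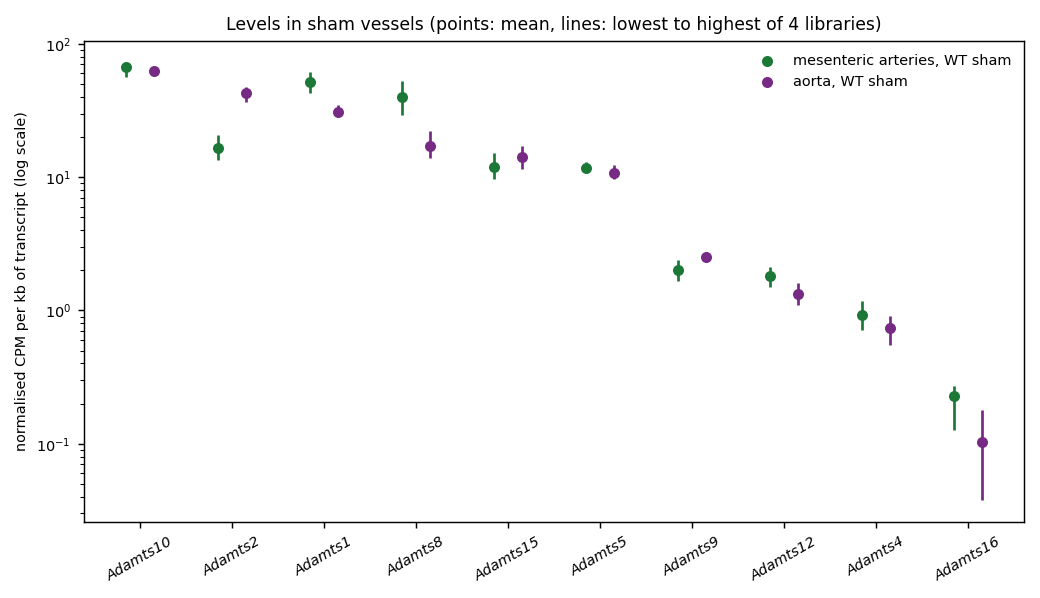
Mean level of each ADAMTS gene in WT sham vessels, in normalised CPM per kb of transcript on a log scale, with lines from the lowest to the highest of 4 libraries; mesenteric arteries stand left of aorta. Adamts10 leads in both tissues on this per-length scale, and Adamts2, Adamts1 and Adamts8 differ between them.

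Set side by side without infusion, mesenteric arteries held more Adamts1 and Adamts8 RNA than aortas and less Adamts2 RNA. By edgeR's quasi-likelihood test with Benjamini-Hochberg adjustment over all genes, 2 members were higher and 1 was lower at an adjusted p below 0.05, the threshold for a call throughout. Of all genes tested, 38.4% were called in this comparison (20.7% higher and 17.7% lower), so 3 of 10 is not above the background. Adamts8, a weak proteoglycanase, had 132, 191, 148 and 107.0 CPM in WT sham mesenteric arteries, against 80.2, 63.0, 54.9 and 50.8 CPM in WT sham aortas. These values did not overlap, and the log2 difference was 1.21 ± 0.24 (adjusted p = 0.000233). Adamts2, the procollagen N-proteinase, had 151, 97.3, 119 and 116 CPM in WT sham mesenteric arteries, against 342, 311, 333 and 267 CPM in WT sham aortas. It was lower in every mesenteric library, with a log2 difference of -1.37 ± 0.19 (adjusted p = 3.71e-06). Adamts1 averaged 252.0 ± 41.7 CPM (SD, n = 4) in mesenteric arteries and 150.6 ± 15.3 CPM in aortas, a log2 difference of 0.74 ± 0.25. Its adjusted p was 0.0198 with all libraries, 0.0614 without mesenteric WT sham replicate 3, 0.0512 without aortic WT sham replicate 2 and 0.0616 without aortic WT sham replicate 4. Over 35 alternatives it ran between 0.00358 and 0.0616. Endothelial markers were also higher in mesenteric arteries (9 of 10 called; sums of 3839 to 4106 CPM against 1023 to 1144 CPM in aortas), and their part in these differences was not tested. In whole vessels, fewer cells of a type and less RNA per cell cannot be told apart. The count tables also differed by tissue, with 55414 versioned identifiers for mesenteric arteries and 55416 identifiers without versions for aortas. Vessel bed and the making of these tables therefore cannot be told apart in this comparison.

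Angiotensin II raised Adamts4, Adamts2 and Adamts12 in the WT aorta and lowered Adamts15. The other 6 members did not pass the threshold. Of all genes tested, 14.7% were called higher and 10.8% lower in this comparison, and the members' median log2 fold change was 0.22 against 0.00 for all genes. With library size as the only scaling, the median of all genes moved to -0.126 and the calls over all genes to 1747 higher and 3729 lower, against 2475 higher and 1826 lower with TMM scaling, while the members called were again 3 higher and 1 lower.

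Among the proteoglycanases, Adamts4, an aggrecan- and versican-cutting enzyme induced by cytokines in other tissues, had 14.8, 7.49, 9.84 and 6.80 CPM in WT AngII aortas, against 3.99, 3.10, 3.45 and 2.42 CPM in WT sham aortas. Every infused library exceeded every sham library, with a log2 fold change of 1.57 ± 0.31 (95% interval 0.89 to 2.24, edgeR adjusted p = 0.00266). Regrouping the 8 libraries in every way gave an exact two-sided permutation p of 0.0286, the smallest that this design allows. Whether the counting used strand is not given, so for any member reads of transcripts on the opposite strand may not be separable. Adamts15, another versican- and aggrecan-cutting enzyme, had 58.0, 71.6, 57.7 and 38.9 CPM in WT AngII aortas, against 101, 68.2, 77.0 and 92.4 CPM in WT sham aortas. The groups overlapped at 1 library on each side, and the log2 fold change was -0.59 ± 0.17 (adjusted p = 0.0174). That call ended without WT sham replicate 1 (log2 fold change -0.50, adjusted p = 0.0508) and with limma voom (-0.36, adjusted p = 0.0707), in a range of adjusted p over 21 alternatives from 0.00276 to 0.0707.

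The remaining proteoglycanases stayed below the threshold in the infused WT aorta. Adamts5, the main aggrecanase of mouse cartilage, averaged 118.6 ± 28.8 CPM in WT AngII aortas and 116.5 ± 11.5 CPM in WT sham aortas (log2 fold change 0.01, 95% interval -0.27 to 0.30). Adamts8 averaged 61.1 ± 8.11 CPM in WT AngII and 62.2 ± 13.01 CPM in WT sham aortas (-0.04, interval -0.54 to 0.46). Adamts1, a versican-cutting enzyme of the vessel wall, spread from 104 to 298 CPM in WT AngII aortas and from 138 to 169.9 CPM in WT sham aortas (0.36, interval -0.19 to 0.91). Its infused libraries thus lay on both sides of the sham range. Adamts9, a versicanase, spread from 19.5 to 34.3 CPM in WT AngII and from 18.6 to 21.9 CPM in WT sham aortas (0.30 ± 0.14, adjusted p = 0.122). Without WT AngII replicate 1 it was called (0.41, adjusted p = 0.0343, over 21 alternatives 0.0343 to 0.433).

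The procollagen N-proteinase Adamts2 was the most abundant member to change. It had 952, 676, 828 and 759.5 CPM in WT AngII aortas, against 342, 311, 333 and 267 CPM in WT sham aortas. The groups stood far apart, with a log2 fold change of 1.34 ± 0.13 (95% interval 1.07 to 1.62, edgeR adjusted p = 7.99e-06, exact permutation p = 0.0286). Adamts12, an enzyme that acts on cartilage oligomeric matrix protein, had 60.7, 36.1, 28.4 and 26.1 CPM in WT AngII aortas, against 13.8, 9.42, 11.8 and 10.7 CPM in WT sham aortas. Again no library overlapped, and the log2 fold change was 1.71 ± 0.25 (interval 1.17 to 2.25, adjusted p = 0.000351, exact permutation p = 0.0286). Both calls, and that of Adamts4, held in all 21 alternatives run. Adamts10, the fibrillin-binding member, had a small shift without overlap, 270 to 294 CPM being its span in WT AngII aortas and 243 to 257 CPM that in WT sham aortas. Its log2 fold change of 0.15 ± 0.07 was not called (edgeR adjusted p = 0.118), though DESeq2 called it (0.0312, over 21 alternatives 0.0312 to 0.815). Adamts16 was close to the detection limit, with 7 to 13 reads per WT AngII library and 5 to 30 per WT sham library, and gave no call (-0.58 ± 0.55, adjusted p = 0.476).

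The infused WT aortas did not vary in step across the family. Replicate 1 was highest for Adamts4, Adamts2 and Adamts12 (14.8, 952 and 60.7 CPM). Replicate 4 was highest for Adamts1, Adamts5 and Adamts9 (298, 156 and 34.3 CPM) and lowest for Adamts4, Adamts12, Adamts8 and Adamts15. Marker sums differed between the same libraries: fibroblast markers came to 13895 CPM in replicate 1 and 5629 CPM in replicate 4, against 6183 to 6657 CPM in WT sham aortas, while smooth muscle markers came to 19723 CPM and 38160 CPM. Macrophage markers were higher in the infused WT aortas (10 of 10 called; 797 to 1074 CPM against 582 to 709 CPM in sham), fibroblast markers mostly higher (5 higher and 1 lower of 10), and smooth muscle markers partly lower (3 of 10). The part of these cell type markers in the ADAMTS changes was not tested.

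**Figure D3:**
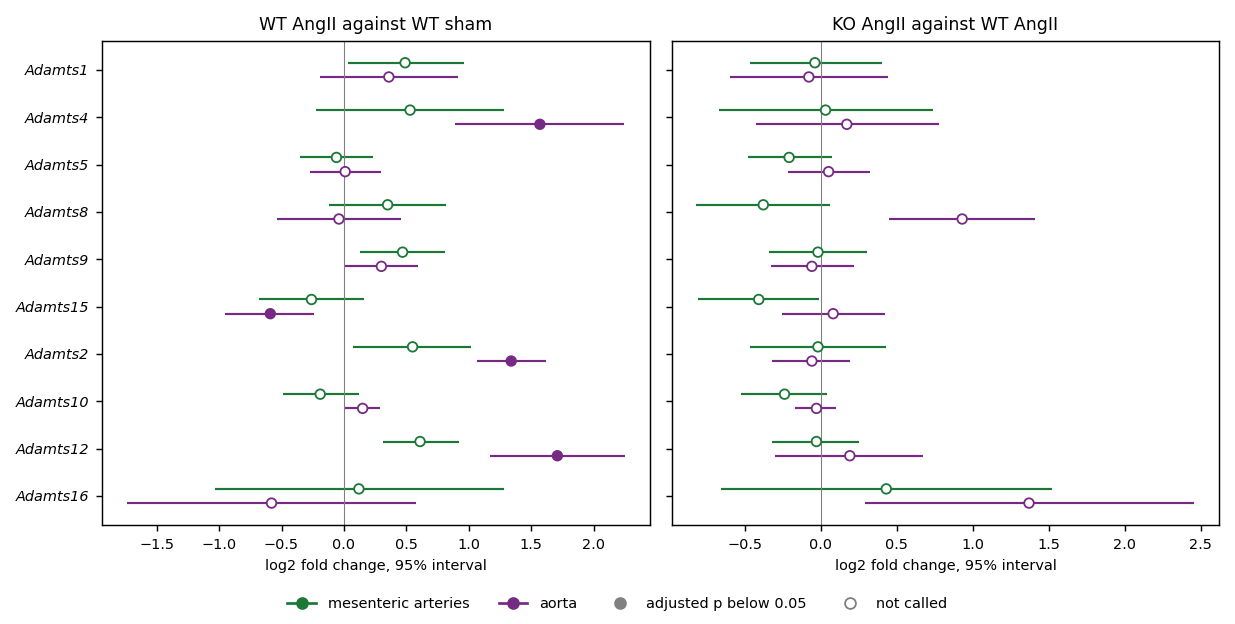
Log2 fold changes of the 10 ADAMTS genes with 95% intervals, for WT AngII against WT sham (left) and KO AngII against WT AngII (right), mesenteric arteries above aorta in each pair; filled points have an adjusted p below 0.05. The 4 filled points are those of Adamts4, Adamts15, Adamts2 and Adamts12 in the aorta after infusion.

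In mesenteric arteries no member was called after infusion by edgeR, where 4 of 10 members had an unadjusted p below 0.05, against 10.6% of all genes. Few genes were called at all there, 0.183% of those tested, and the members' median log2 fold change was 0.41. The spread between libraries beyond counting noise (edgeR common dispersion) was 0.127 in mesenteric arteries, against 0.0286 in the aorta. Numbers of calls therefore do not compare the size of the response between tissues. DESeq2 and limma voom each called 1 member, Adamts12, where they called 1.76% and 1.43% of all genes. Adamts12 had 24.3, 25.5, 22.1 and 23.3 CPM in WT AngII mesenteric arteries, against 18.3, 14.6, 12.9 and 16.4 CPM in WT sham. All infused libraries lay above all sham libraries, with a log2 fold change of 0.61 ± 0.14 (edgeR adjusted p = 0.132, exact permutation p = 0.0286). DESeq2 gave an adjusted p of 0.00765 and limma voom one of 0.0404, and over 23 alternatives it ran from 0.00765 to 0.345. Adamts9 averaged 22.4 ± 3.83 CPM in WT AngII and 16.2 ± 2.38 CPM in WT sham mesenteric arteries, also without overlap (log2 fold change 0.47 ± 0.16, adjusted p = 0.318). Adamts2 spread from 137 to 207 CPM in WT AngII and from 97.3 to 151 CPM in WT sham (0.55 ± 0.22, adjusted p = 0.406). Adamts1 had 388, 397, 253 and 385 CPM in WT AngII, against 208, 272, 299.9 and 228 CPM in WT sham (0.49 ± 0.21, adjusted p = 0.443); replicate 3 was the low infused library. The remaining 6 members had log2 fold changes between -0.26 (Adamts15) and 0.53 (Adamts4), with adjusted p-values of 0.583 to 0.956. Endothelial markers summed to 2875 to 3550 CPM in WT AngII and 3839 to 4106 CPM in WT sham mesenteric arteries, and macrophage and lymphocyte markers varied widely; their part was not tested.

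The difference of the angiotensin II effect between tissues, mesenteric minus aorta, was called for Adamts12 and for no other member by edgeR; of all genes tested, 2.34% were called (0.68% higher and 1.66% lower). For Adamts12 the mesenteric effect of 0.61 and the aortic effect of 1.71 gave a difference of -1.11 ± 0.29 (95% interval -1.71 to -0.51, adjusted p = 0.0418). This call was not stable, since it was kept in 16 of 35 alternatives with adjusted p-values from 0.00815 to 0.0993. The direction held in each of them, with differences between -1.25 and -0.78. The fit of all libraries had a common dispersion of 0.0804, between those of the separate tissues. Adamts2 had a difference of -0.81 ± 0.27 (adjusted p = 0.117) and Adamts4 one of -1.05 ± 0.48 (adjusted p = 0.295). The other 7 members had differences between -0.34 (Adamts10) and 0.68 (Adamts16), none called.

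In aortas under infusion, deletion of Sphk1 in smooth muscle left no member past the threshold by edgeR, and 2 of 10 had an unadjusted p below 0.05, against 3.61% of all genes. Only Sphk1 was called among all genes in this comparison, 0.00593% of those tested, by edgeR. The member with the smallest p was Adamts8, which had 152, 119, 152, 84.5 and 74.4 CPM in KO AngII aortas, against 59.2, 72.6, 58.7 and 53.7 CPM in WT AngII aortas. Each KO library lay above each WT AngII library, with a log2 fold change of 0.93 ± 0.22 (95% interval 0.45 to 1.41, p = 0.00117, edgeR adjusted p = 0.981, exact permutation p = 0.0238). DESeq2 called it (adjusted p = 0.0230), and over 21 alternatives the adjusted p ran from 0.0230 to 1.00 with log2 fold changes from 0.75 to 1.05. Marker sums of the groups overlapped: smooth muscle markers came to 20424 to 34680 CPM in KO AngII aortas and 19723 to 38160 CPM in WT AngII aortas, and endothelial markers to 720 to 1171 CPM and 729 to 1102 CPM. Within the KO group, replicates 4 and 5 had the least Adamts8, the smallest endothelial sums (720 and 739.7 CPM, against 966 to 1171 CPM in the other 3) and the smallest smooth muscle sums (23722 and 20424 CPM, against 25250 to 34680 CPM); the part of either was not tested. The antisense gene Gm29724, which shares exon bases with Adamts8, averaged 0.979 CPM in KO AngII and 0.876 CPM in WT AngII aortas. Adamts16 was at 11 to 45 reads per KO library and 7 to 13 per WT AngII library (1.37 ± 0.51, edgeR adjusted p = 0.981, exact permutation p = 0.0317).

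The members that rose with infusion had similar means in KO AngII and WT AngII aortas. Adamts2 averaged 771 ± 98.01 CPM in KO AngII aortas (n = 5) and 804 ± 117 CPM in WT AngII aortas (n = 4), a log2 fold change of -0.06 with a 95% interval of -0.32 to 0.19. For Adamts4 the interval was -0.43 to 0.78 around 0.17, and for Adamts12 it was -0.30 to 0.67 around 0.19. The interval of Adamts15 was -0.26 to 0.42. The log2 rises after infusion in the WT aorta were 1.34, 1.57 and 1.71 for Adamts2, Adamts4 and Adamts12, and a loss of that size with deletion lay outside each of these 3 intervals. Against WT sham aortas, the KO AngII aortas had 4 members higher (Adamts4, Adamts2, Adamts12 and Adamts8) and 1 lower (Adamts15), where 16.6% of all genes were called higher and 14.2% lower. The log2 fold changes were 1.74 ± 0.30 for Adamts4, 1.28 ± 0.12 for Adamts2, 1.90 ± 0.24 for Adamts12 and -0.51 ± 0.16 for Adamts15. Macrophage markers (10 of 10) and fibroblast markers (6 of 10) were called higher in the same comparison and smooth muscle markers lower (5 of 10). Macrophage markers summed to 1011 to 1188 CPM in KO AngII aortas and 582 to 709 CPM in WT sham aortas, fibroblast markers to 8092 to 11315 CPM in KO AngII and 6183 to 6657 CPM in WT sham, and smooth muscle markers to 20424 to 34680 CPM in KO AngII and 33814 to 41388 CPM in WT sham. Their part was not tested. For Adamts8, KO AngII aortas (74.4 to 152 CPM) and WT sham aortas (50.8 to 80.2 CPM) overlapped, with an exact permutation p of 0.0397. Its log2 fold change was 0.88 ± 0.22 (edgeR adjusted p = 0.00921) for KO AngII against WT sham aortas and -0.04 ± 0.23 for WT AngII against WT sham aortas. These comparisons share libraries, so they are given side by side only.

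In mesenteric arteries under infusion, KO AngII and WT AngII did not differ past the threshold for any member by edgeR, where Sphk1 was the only gene called (0.00571% of those tested) and 1 of 10 members had an unadjusted p below 0.05, against 4.98% of all genes. That member was Adamts15, with 48.7, 54.3, 31.4, 37.7 and 49.6 CPM in KO AngII, against 50.1, 59.0, 77.5 and 49.7 CPM in WT AngII mesenteric arteries. The groups overlapped (log2 fold change -0.41 ± 0.18, edgeR adjusted p = 0.798, exact permutation p = 0.0952). Adamts8 averaged 141.8 ± 35.8 CPM in KO AngII and 185 ± 37.3 CPM in WT AngII mesenteric arteries (-0.38, 95% interval -0.82 to 0.06), the opposite sign to the aorta. The difference of its deletion effect between tissues, mesenteric minus aorta, was -1.31 ± 0.31 (95% interval -1.96 to -0.67, edgeR adjusted p = 0.953), and no gene was called for that difference by edgeR (0% of genes tested, 749 with an unadjusted p below 0.05). DESeq2 called it, with an adjusted p of 0.0353 in a range over 35 alternatives from 0.0353 to 1.00. Against WT sham mesenteric arteries, KO AngII mesenteric arteries gave no member call by edgeR either, where 0.708% of genes were called. An unadjusted p below 0.05 was found for 6 of 10 members and for 19.1% of all genes. The values nearest the threshold were those of Adamts12 (0.58 ± 0.13, adjusted p = 0.071) and Adamts15 (-0.67 ± 0.18, adjusted p = 0.102), both without overlap between the groups. DESeq2 called these 2 and Adamts10, with adjusted p-values of 0.00344, 0.0170 and 0.0351. It called 8.02% of all genes in this comparison.

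Of the other 9 ADAMTS genes, 6 could be tested in the aorta, and 4 rose in WT AngII against WT sham, where 14.7% of all genes were called higher: Adamts7, Adamts3, Adamts17 and Adamts14. Adamts7, the closest relative of Adamts12, had 12.1, 6.85, 9.28 and 7.76 CPM in WT AngII aortas, against 3.04, 2.99, 2.78 and 2.09 CPM in WT sham aortas (1.71 ± 0.21, adjusted p = 5.15e-05). Its log2 fold change in mesenteric arteries was -0.02, and the tissue difference, mesenteric minus aorta, was -1.74 (adjusted p = 0.00162). Adamts3, like Adamts2 a procollagen N-proteinase, rose by 0.88 ± 0.20 on the log2 scale (adjusted p = 0.00431). Adamts17 had 9.94, 2.09, 5.03 and 1.99 CPM in WT AngII aortas, against 0.373 to 0.870 CPM in WT sham aortas (2.94 ± 0.72, adjusted p = 0.0107). The ADAMTS-like proteins, which lack the protease domain, gave 1 higher (Adamtsl1) and 1 lower (Thsd4) of 7, a share near the 25.5% of all genes called in either direction.

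Substrates were read from lists of genes chosen from general knowledge with earlier results of these data known. In infused WT aortas edgeR called 14.7% of all genes tested higher and 10.8% lower. All 8 of 8 genes for procollagens cut by N-proteinases and their partners rose there, with a median log2 fold change of 1.85. Col1a1, a chain of type I collagen, rose by 2.42 ± 0.23 and Col5a2 by 1.80 ± 0.13. Of 8 fibrillin and glycoprotein substrates 7 rose, among them Fbn1, the main fibrillin (1.25 ± 0.11), Thbs1, a matricellular protein (3.02 ± 0.25), and Comp, the cartilage oligomeric matrix protein (2.15 ± 0.29). Of hyaluronan-binding proteoglycans and partners 2 of 7 tested genes were higher: Acan, which encodes aggrecan (1.78 ± 0.17), and Has2, a hyaluronan synthase (1.63 ± 0.50). Vcan, which encodes versican, had a log2 fold change of 0.26 ± 0.23 (adjusted p = 0.439). Among inhibitors, activators and clearance receptors, 4 of 10 rose and 1 fell. Timp1 rose by 2.42 ± 0.26 and Timp2 by 0.74 ± 0.12, while Timp3, the main tissue inhibitor of ADAMTS enzymes, gave 0.32 ± 0.19 (adjusted p = 0.244). In infused WT mesenteric arteries edgeR called none of the 34 tested genes of these 4 lists, against 0.183% of all genes. It gave 11 of the 34 an unadjusted p below 0.05, against 10.6% of all genes. DESeq2 called 4 of them (1.76% of all genes) and limma voom 7 (1.43% of all genes). The medians there were 0.45 for procollagens, 0.34 for fibrillins and glycoproteins, 0.10 for proteoglycans and 0.02 for inhibitors. The tissue difference, mesenteric minus aorta, was called lower for 7 of 8 procollagen genes and 3 of 8 fibrillin and glycoprotein genes by edgeR. It was called for none of the 7 proteoglycan genes. Of all genes tested, 0.68% were called higher and 1.66% lower for that difference. Between KO AngII and WT AngII, edgeR, DESeq2 and limma voom called none of the genes of these 4 lists. An unadjusted edgeR p below 0.05 was found for 0 of 34 in mesenteric arteries, against 4.98% of all genes. In aortas it was found for 4 of 33, against 3.61% of all genes.

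**Figure D4:**
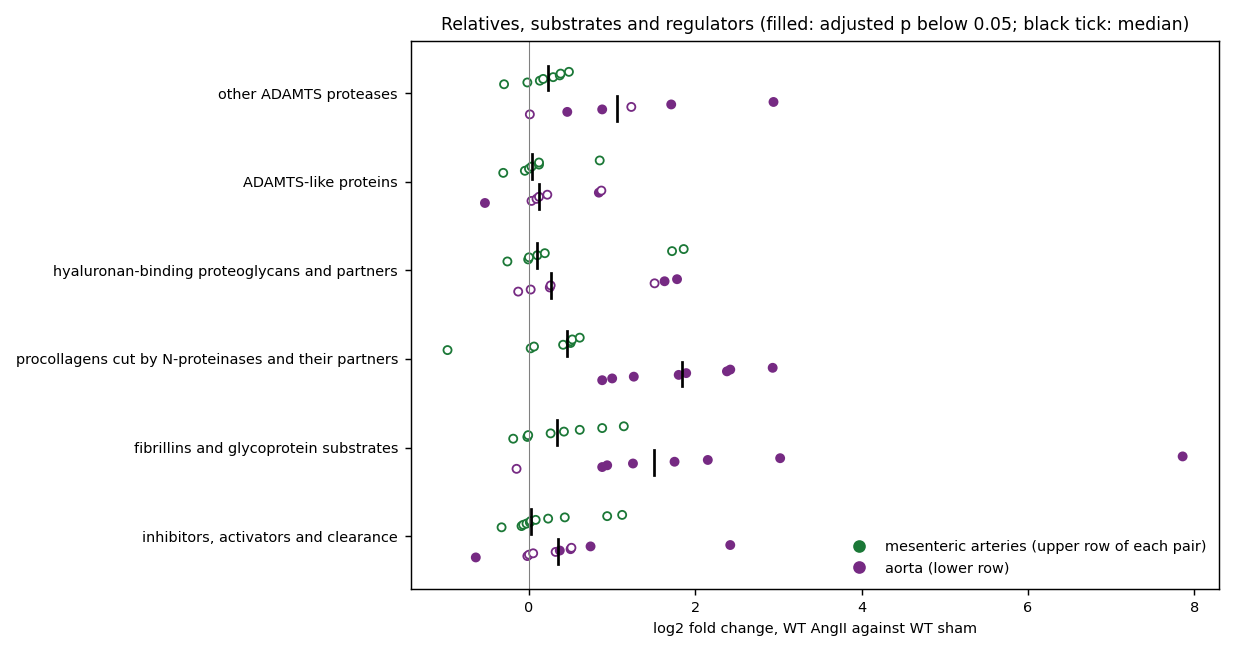
Log2 fold changes, WT AngII against WT sham, of the other ADAMTS genes, ADAMTS-like proteins, substrates and regulators (1 point per gene, filled where the adjusted p is below 0.05; black ticks are medians), mesenteric arteries above aorta. In the aorta the procollagen median is 1.85 and that of fibrillins and glycoproteins 1.5, while no mesenteric gene is filled.

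Profiles over the 26 libraries were compared by the mean absolute difference of log2 CPM after centring each gene on its own mean, over 18460 genes. This measure describes likeness and carries no test, and the libraries share tissue, infusion and cell content. The gene nearest to Adamts2 was Clec11a (0.15), followed by C1qtnf6 (0.16) and Mfap5 (0.19). Nearest to Adamts12 were Eda2r (0.24), Car13 (0.24) and Adamts7 (0.26). Adamts4 lay nearest to Mmp19, a matrix metalloprotease (0.25). For Adamts8 it was Apcdd1 (0.24), for Adamts1 Map3k6 (0.20), for Adamts15 Zfp704 (0.19), for Adamts9 Mafg (0.14), for Adamts5 Sdc2 (0.10), for Adamts10 Slc12a4 (0.10) and for Adamts16 Pla1a (0.48). Within the family, Adamts10 was the nearest member to Adamts5 (0.18), Adamts9 (0.24) and Adamts15 (0.26). Adamts10 varied little, deviating from its own mean by 0.174. The same deviation was 0.154 for Adamts5, 0.212 for Adamts9 and 0.295 for Adamts15. For Adamts5 and Adamts9, Adamts10 was thus no nearer than a flat profile. Adamts4 and Adamts12 were each other's nearest member (0.32), as were Adamts1 and Adamts8 (0.39). The neighbours Adamts15 and Adamts8 on chromosome 9 were not each other's nearest member, nor were Adamts1 and Adamts5 on chromosome 16.

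Promoter windows were at hand for 4 of the 10 members (RefSeq, GRCm38.p6), and those of the pair that rose most clearly are shown, 250 bases before the gene start on the coding strand, with GC boxes (GGGCGG on either strand) in capitals.
Adamts2 (chr11:50601835-50602084, plus strand): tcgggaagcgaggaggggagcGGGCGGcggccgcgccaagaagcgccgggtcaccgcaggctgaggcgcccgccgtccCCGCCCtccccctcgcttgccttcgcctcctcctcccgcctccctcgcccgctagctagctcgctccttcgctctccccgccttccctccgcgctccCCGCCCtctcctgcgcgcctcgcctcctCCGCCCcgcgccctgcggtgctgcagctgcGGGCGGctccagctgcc
Adamts12 (chr15:11064523-11064772, plus strand): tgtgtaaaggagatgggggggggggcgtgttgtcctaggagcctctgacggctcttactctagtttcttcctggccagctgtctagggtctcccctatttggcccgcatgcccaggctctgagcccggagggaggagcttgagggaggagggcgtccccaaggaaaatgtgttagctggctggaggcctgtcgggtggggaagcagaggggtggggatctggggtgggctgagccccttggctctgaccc
The Adamts2 window held 5 GC boxes and that of Adamts12 none; 32.7% of 32851 windows of this length held at least 1. The GC content was 78.0% for Adamts2 and 63.2% for Adamts12. Among 4 windows, those of Adamts1 and Adamts9 held 3 and 1 GC boxes, and that of Adamts1 also a TATA box (TATAAA, in 12.4% of windows). The letters of AP-1 (TGANTCA, 6.75% of windows), the SMAD box (CAGACA, 17.1%), the TEAD element (GGAATG, 12.6%), the RUNX element (TGTGGT, 14.0%), the E-box (CACGTG, 6.02%) and the CRE (TGACGTCA, 1.55%) were in none of the 4 windows on either strand, which says nothing of the factors themselves.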

How the data were processed

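Each library has a deposited table of raw counts by Ensembl identifier, made per the submitters' processing notes with cutadapt, HISAT2 and HTSeq on GRCm39; versions, annotation and the strand setting are not given in the sources used here. Libraries were poly(A), directional and paired-end per the labels' protocols. The 5 summary lines per table, with 0.572 to 14.7% of records not aligned and 6.64 to 11.1% without a feature, stayed out of library sizes and tests. Symbols came from a reference table (52083 of 55416 aortic identifiers). The mesenteric count tables alone carried versioned identifiers, and the versions were dropped. Libraries of 1 group differed beyond counting noise in all 44 pairs, so none is a copy of another in its group. Pairs across groups were not compared.

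Each tissue was fitted apart over its 3 groups, and tissue differences in a fit of all 26 libraries, with edgeR 4.0.16 under R 4.3.3 (filterByExpr, TMM, robust quasi-likelihood F test, Benjamini-Hochberg over all genes). The ± values are SD beside CPM and SE beside log2 fold changes; CPM use TMM factors of the 26 libraries and log2 CPM a prior count of 2. Alternatives were DESeq2 1.42.0, limma 3.58.1 voom with quality weights, library size alone or RLE factors as scaling, a stricter filter (1 CPM in 4 libraries) or none, only the groups compared, a replicate block and leaving out each library; 2 sets of doubted mesenteric libraries were left out as alternatives chosen after seeing the data. The methods were tested on simulated data.

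The members and gene lists were chosen with earlier results of these data known. All 10 members are described in each comparison; the other lists give their 3 called genes of smallest adjusted p, or 2 as values where none was called. The text uses a selection of these, with Vcan, Comp, Timp3 and Adamts14 named after their values were seen. Labels number the samples but do not say that they come from separate animals across tissues; p-values measure the spread between these libraries. Intervals cover 95%.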

Additional observations from a re-analysis of the deposited data

Results flagged for a closer look

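Gaps of a lone library were looked for in 60 pairs of an ADAMTS gene and a group, of which chance alone flags about 5%, and 2 were found. Adamts1 had a low library among the mesenteric WT AngII arteries: replicate 3 stood at 253 CPM, against 385 to 397 CPM in the other 3, a gap of 0.936 of the whole range in log2 CPM. Adamts16 had a low library among the mesenteric WT sham arteries, replicate 3 at 0.633 CPM against 1.24 to 1.36 CPM in the other 3, a gap of 0.873 of the range. Adamts16 counts there were 14 to 37 reads. The difference of the angiotensin II effect on Adamts12 between tissues, mesenteric minus aorta, was called at -1.11 on the log2 scale by the interaction term of edgeR's fit of all libraries.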

How the results depend on the processing

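The members called were 4 in the infused WT aorta, 5 in KO AngII against WT sham aortas and 3 between sham tissues. With 1 library left out these counts were 3 to 5, 4 to 6 and 2 to 4. Between sham tissues limma voom called 6 members, against 49.4% of all genes tested. Of the comparisons with 0 members called, none gained one with a library left out. DESeq2 gave 1 (Adamts8) in KO AngII against WT AngII aortas, where it called 0.0356% of all genes. It gave 1 (Adamts8) for the tissue difference of the deletion effect (0.081% of all genes). In infused WT mesenteric arteries it gave 1 (Adamts12, 1.76% of all genes). In KO AngII against WT sham mesenteric arteries it gave 3 (8.02% of all genes). In each of the last 2 limma voom gave 1 (Adamts12), with 1.43% and 2.71% of all genes called. The single member called for the tissue difference of the angiotensin II effect, Adamts12, went to 0 with library size alone, with no filter, with the replicate block and without the 4 mesenteric libraries of over 10% not aligned (KO AngII replicates 2, 3 and 4 and WT AngII replicate 1), and without mesenteric KO AngII replicate 3 and WT AngII replicate 1 alone. It ranged from 0 to 1 with 1 library left out, ending without KO AngII replicate 1, WT AngII replicates 1 and 2 and WT sham replicates 2, 3 and 4 of the aorta, and without KO AngII replicate 1, WT AngII replicates 1 to 4 and WT sham replicates 1, 2 and 4 of the mesenteric arteries; the cause was not tested. No called member changed sign in any alternative. KO AngII against WT sham aortas lost Adamts15 without sham replicate 1 (adjusted p = 0.0732) or 4 (0.0540) by edgeR, and gained Adamts9 without WT AngII replicate 4 (0.0492) or with only the groups compared (0.0256). Between sham tissues, Adamts12 was gained without aortic WT AngII replicate 1 (adjusted p = 0.0265 by edgeR).

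Counts over all genes moved more. In infused WT mesenteric arteries 32 genes were called, against 309 with DESeq2, 250 with limma voom, 78 with only the groups compared, 15 with library size alone, 8 with the replicate block and 8 to 116 with a library left out. KO AngII against WT sham mesenteric arteries gave 124, against 1405 with DESeq2, 475 with limma voom, 20 with the block, 15 with only the groups compared, 289 without the libraries of over 10% not aligned and 23 to 156 with a library left out. The tissue difference of the angiotensin II effect gave 434, against 867 with DESeq2, 1251 with limma voom, 272 with no filter, 190 with the block, 719 without the poorly aligned libraries and 227 to 639 with a library left out. KO AngII against WT AngII gave 1 gene in each tissue; it gave 57 without the poorly aligned mesenteric libraries and 0 to 6 otherwise. The tissue difference of the deletion effect gave 0, against 15 with DESeq2 and 11 without the poorly aligned libraries. The 289, 57 and 11 genes without those libraries rest on replicates 1 and 5 alone for mesenteric KO AngII. Gut and pancreas markers summed to 145 CPM in replicate 1 and 43039 CPM in replicate 5. Under library size alone the split was 2192 higher and 4075 lower for KO AngII against WT sham aortas, against 2796 and 2401, 188 and 183 for the tissue difference of the angiotensin II effect, against 126 and 308, and 65 and 70 for KO AngII against WT sham mesenteric arteries, against 80 and 44.

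Deviations of samples of the same number correlated at -0.253 to 0.318 within mesenteric arteries, -0.249 to 0.0873 within the aorta and -0.119 to 0.133 across tissues. Correlations between samples of different numbers were not computed for comparison, so these values can neither show nor exclude pairs. As the labels do not state pairs, the main fits took none. The replicate block changed no other member's call. Depth limits Adamts16, with 5 to 81 reads per library, and all p-values rest on 4 or 5 libraries per group.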

Other observations

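Relatives and substrates of the ADAMTS genes also differed between sham vessels by edgeR's quasi-likelihood test, in a comparison where 38.4% of all genes were called (20.7% higher and 17.7% lower). Of the 8 other ADAMTS proteases tested, 4 were higher and 2 lower in mesenteric arteries. Adamts20, a versicanase close to Adamts9, had 6.96, 9.10, 12.4 and 10.6 CPM in WT sham mesenteric arteries, against 0.268, 0.265, 0.148 and 0.186 CPM in WT sham aortas (log2 difference 5.45 ± 0.34, adjusted p = 7.74e-12). Adamts6 was lower in mesenteric arteries (10.6 ± 1.19 CPM against 26.7 ± 2.12 CPM in aortas, SD, n = 4 each; -1.33 ± 0.10, edgeR adjusted p = 3.17e-10). Adamts13, named after its values were seen, had 0 to 23 reads in mesenteric libraries and 0 reads in each of the 13 aortic libraries, and it was not tested. The ADAMTS-like proteins gave 3 higher and 3 lower of 7. Among them Adamtsl1 averaged 174 ± 26.4 CPM in WT sham mesenteric arteries and 9.76 ± 2.0 CPM in WT sham aortas (4.15 ± 0.20, adjusted p = 1.58e-13), and Thsd4 was lower (-1.88 ± 0.16, adjusted p = 1.04e-09).

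Of 7 hyaluronan-binding proteoglycans and partners tested, 1 was higher and 4 lower in mesenteric arteries. Acan, which encodes aggrecan, averaged 0.573 ± 0.17 CPM in WT sham mesenteric arteries and 43.9 ± 8.58 CPM in WT sham aortas (-6.27 ± 0.30, edgeR adjusted p = 1.54e-13). Vcan, which encodes versican, was also lower (-1.51 ± 0.31, adjusted p = 0.000377). The procollagen list gave 0 higher and 7 lower of 8, among them Col1a2 (-1.41, adjusted p = 4.72e-06). Fibrillins and glycoprotein substrates were mixed, with 3 higher and 4 lower of 8, such as Thbs1 (2.45 ± 0.24) and Comp (-2.39 ± 0.27). Inhibitors, activators and clearance receptors gave 2 higher and 4 lower of 11. Over all genes tested the median log2 difference was 0.02. Endothelial markers (9 of 10 called), neural markers (6 of 8) and gut and pancreas markers (9 of 10) were higher in the same mesenteric libraries. Gut and pancreas markers summed to 36.2 to 26497 CPM there, against 3.10 to 6.67 CPM in aortas. Their part in these differences was not tested, and vessel bed and the making of the count tables cannot be told apart here.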
